A study of Rattus norvegicus with 18 samples.

Results

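The genes that take up glutamate, turn it into glutamine and load it into synaptic vesicles were followed in rat cortical cultures exposed to excess glutamate. They are Slc17a7, Slc17a6, Slc1a2, Slc1a3, Slc1a1, Glul, Glud1, Slc38a3 and Slc38a1, and were taken by symbol, ignoring case, so that 9 of the 31463 rows of the count files were used. All 9 were found, and all passed the filter on low counts. The 18 libraries of messenger RNA came from primary neuroglial cultures of the cerebral cortex of newborn Wistar rats, in which cytosine arabinoside had been used to restrain glial growth, and fell into 6 groups of 3. Control cultures received no glutamate. Glutamate cultures were exposed on day 10 in vitro to 100 µM glutamate. Per the study's methods, it was given with glycine for 1 h and washed out, and RNA was taken after a further 4 h in culture medium. Memantine cultures are labelled only by the drug, a blocker of the N-methyl-D-aspartate (NMDA) type of glutamate receptor, which the series design describes at 100 µM as the positive control of the same model. Per the study's methods, these cultures received the drug along with glutamate, so they too were exposed to 100 µM glutamate. Glutamate_vesicles, Glutamate_secret and Glutamate_BPC cultures had received secreted material of human glial progenitor cells, derived from induced pluripotent stem cells of 1 donor, on the day before glutamate. The vesicle group is plain from its label, whereas the labels leave unsettled which of the other 2 preparations is the size-limited protein fraction and which the whole secretome. The study's methods speak in general of repeats on unrelated cultures, but no label ties the libraries of a group to separate ones. The p-values therefore measure the spread between these libraries, which may be technical or may include batches such as a culture day.

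Glutamate released at synapses is cleared mainly by astrocytes, through the transporters encoded by Slc1a2 and Slc1a3, and to a lesser degree by neurons through the product of Slc1a1. Astrocytes convert it to glutamine with glutamine synthetase (Glul) or oxidise it with glutamate dehydrogenase (Glud1), export the glutamine through Slc38a3, and neurons take it in through transporters such as Slc38a1 and make glutamate again. The vesicular transporters encoded by Slc17a7 and Slc17a6 then fill synaptic vesicles, and the presence of either marks a neuron as glutamatergic. In the text, Slc1a2, Slc1a3, Glul, Glud1 and Slc38a3 are called glial and the other 4 neuronal, by where each is mainly known to be expressed in the cortex, although Glud1 and Slc38a1 are found in both kinds of cell.

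Total counts ranged from 8409574 to 17206354 per library, and ribosomal RNA made up 3.04% to 43.0% of them. The highest share and the lowest total were both those of Control 1. Levels are given as CPM, the count relative to a library size that was corrected for composition with the TMM method of edgeR. The correction set the size of Control 1 at 3502360. The cultures are labelled neuroglial, and 10 of 10 neuron markers and 9 of 10 astrocyte markers passed the filter, Gjb6 being the exception. All 8 microglial markers and all 8 of the oligodendrocyte lineage passed as well. Of the 5 endothelial markers only Pecam1 passed, and its level was 0.32 to 3.92 CPM. The library labelled Memantine 3 stood apart from the other Memantine libraries in the neuronal genes, and the comparisons of Memantine with other groups are given with and without it. It was singled out after seeing the levels of these genes, so results without it are a description.

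Of the 9 genes, the vesicular transporters Slc17a7 and Slc17a6 differed most between the groups, with low levels in the glutamate-exposed cultures that had no memantine. Slc17a7 (VGLUT1), the main vesicular transporter of mature cortical excitatory neurons, was measured at 51.4, 78.3 and 52.9 CPM in the Control libraries and at 16.4, 3.81 and 4.09 CPM in the Glutamate libraries. Slc17a6 (VGLUT2), which loads vesicles in subcortical and in immature cortical neurons, was at 7.71, 11.3 and 8.51 CPM in Control and at 2.20, 2.22 and 0.88 CPM in Glutamate. The Control and Glutamate ranges did not overlap for either gene. In the RNA of whole cultures, fewer cells of a type and less RNA per cell cannot be told apart.

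The log2 fold change of Slc17a7 between Glutamate and Control was -2.92 with a standard error (SE) of 0.86 and a 95% interval from -4.74 to -1.10, or 7.57-fold lower. Without Glutamate 1, which had the highest Slc17a7 of the 3 Glutamate libraries, the log2 fold change was -3.94, or 15.4-fold lower, and without Control 1 it was -3.03. Over all 3 libraries of each group its unadjusted p was 0.00377, and the adjusted p of the edgeR quasi-likelihood test over all 14398 genes was 0.310. For Slc17a6 the log2 fold change was -2.38 (SE 0.80, 95% interval -4.07 to -0.68), or 5.19-fold lower, with an unadjusted p of 0.00901 and an adjusted p of 0.381 by edgeR. With an adjusted p below 0.05 as the threshold, the quasi-likelihood test called 0 of the 9 genes and 0 of all genes tested (0%). With an unadjusted p below 0.05 and a fold above 1.5, it counted 2 of the 9 as lower, against 5.92% of all genes. Ranges without overlap, lower in Glutamate, were found for 2 of the 9 and for 7.76% of all genes. DESeq2 called 1 of the 9, Slc17a7, at an adjusted p of 0.0296, and the edgeR likelihood-ratio test called 0, with an adjusted p of 0.0780 for Slc17a7. Over all alternatives tried, that adjusted p ran from 0.0296 to 0.928.

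**Figure D1:**
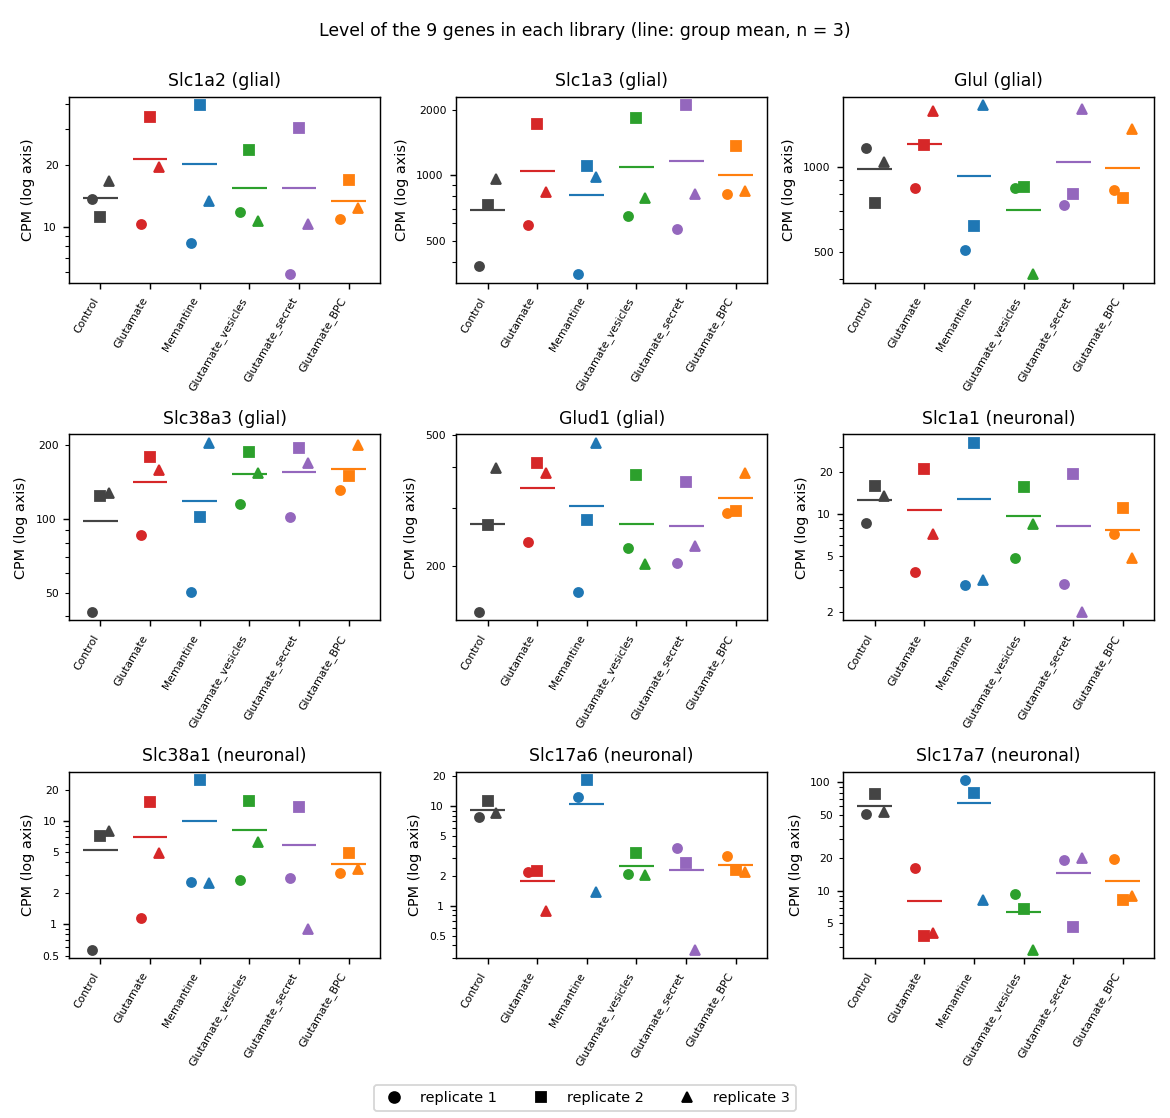
Level of each of the 9 genes in CPM (log axis) in the 18 libraries by group, with point shapes for the replicate number and a line at the mean of 3 libraries. Slc17a6 and Slc17a7 lie below all 3 Control libraries in every library of Glutamate, Glutamate_vesicles, Glutamate_secret and Glutamate_BPC, while the other 7 genes overlap with Control in most groups.

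The low levels extended to the cultures that had received secreted material. Slc17a7 was at 9.37, 6.74 and 2.87 CPM in Glutamate_vesicles, at 19.4, 4.60 and 20.3 CPM in Glutamate_secret and at 19.5, 8.24 and 8.89 CPM in Glutamate_BPC. Slc17a6 was at 2.09, 3.37 and 2.04 CPM in Glutamate_vesicles, at 3.78, 2.70 and 0.36 CPM in Glutamate_secret and at 3.17, 2.31 and 2.17 CPM in Glutamate_BPC. All 12 libraries of the 4 groups with glutamate and no memantine therefore lay below the lowest Control library for both genes, as did 5.41% of all genes tested. The order held when library totals without ribosomal RNA were used in place of TMM, with a Control minimum of 37.6 CPM against a maximum of 21.4 CPM in the 12 libraries for Slc17a7. For Slc17a6 these values were 5.64 and 5.16 CPM. Slc17a6 rests on few reads, since its counts were 27 to 230 in Control and 9 to 35 in Glutamate, and Glutamate_secret 3 had 2.

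Against Control, Slc17a7 was lower by a log2 fold change of -3.27 in Glutamate_vesicles (SE 0.87, 95% interval -5.12 to -1.43), or 9.66-fold, with an adjusted p of 0.205 by the edgeR quasi-likelihood test. This comparison was called by other fits. DESeq2 gave an adjusted p of 0.00713, the edgeR likelihood-ratio test 0.0226, and the edgeR quasi-likelihood fit with the replicate number as a block -3.48 with an adjusted p of 0.0271, and over all alternatives the adjusted p ran from 0.00713 to 0.739. In Glutamate_secret the log2 fold change of Slc17a7 against Control was -2.06 (95% interval -3.82 to -0.29) and in Glutamate_BPC -2.32 (95% interval -4.09 to -0.55), with adjusted p of 0.348 and 0.332 by edgeR. The corresponding log2 fold changes of Slc17a6 were -1.87, -1.99 and -1.85 in the vesicle, secret and BPC groups, with adjusted p of 0.368, 0.340 and 0.388 by edgeR. Both genes had an unadjusted p below 0.05 and a fold above 1.5 in each of these 3 comparisons, as lower genes did in 7.46%, 7.44% and 7.27% of all genes. The adjusted edgeR threshold was passed by 0 of the 9 genes in each, while 0.0139%, 0% and 0% of all genes passed it. DESeq2 called 0 of the 9 in Glutamate_secret and in Glutamate_BPC, as did the likelihood-ratio test. The second criterion depended on single libraries. Without Control 2, the unadjusted p of Slc17a6 was 0.0709, 0.0571 and 0.0750 in the vesicle, secret and BPC groups, and that of Slc17a7 was 0.0626 in Glutamate_secret. Slc17a6 also missed it without Glutamate_vesicles 1 or 3, Glutamate_secret 3, and Glutamate_BPC 2 or 3, with p of 0.0720 to 0.0804. Slc17a7 missed it without Glutamate_secret 2 (p of 0.0862), where Slc1a1 met it as a lower gene instead, and without Glutamate_BPC 2 (p of 0.0501), by edgeR. With totals without ribosomal RNA and no TMM, the unadjusted p of Slc17a6 was 0.0713 in Glutamate_vesicles and 0.0516 in Glutamate_BPC.

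Beside Glutamate itself, no shift of the vesicular transporters was detectable in any of the 3 preparations. The log2 fold change of Slc17a7 against Glutamate was -0.35 (95% interval -2.07 to 1.37) with vesicles, 0.86 (-0.86 to 2.59) in Glutamate_secret and 0.60 (-1.12 to 2.32) in Glutamate_BPC. For Slc17a6, in the same order, it was 0.51 (95% interval -1.13 to 2.14), 0.38 (-1.27 to 2.04) and 0.53 (-1.12 to 2.17). These intervals are wide on both sides of 0. Without Glutamate 1 the values of Slc17a7 became 0.67, 1.89 and 1.63 in the vesicle, secret and BPC groups.

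Memantine cultures were split. Slc17a7 was at 104, 80.3 and 8.26 CPM in the 3 Memantine libraries, and Slc17a6 at 12.2, 18.1 and 1.37 CPM. Memantine 1 and 2 lay above the highest Control library for both genes, whereas Memantine 3 lay inside the Glutamate range. Over the 3 libraries, the log2 fold change against Glutamate was 3.00 for Slc17a7 (SE 0.86, 95% interval 1.17 to 4.83) and 2.57 for Slc17a6 (SE 0.80, 95% interval 0.88 to 4.27), or 7.99-fold and 5.96-fold higher. The unadjusted p were 0.00319 and 0.00554, and the adjusted p was 0.635 for both by the edgeR quasi-likelihood test. Without Memantine 3 the values were 3.51 and 3.08, with adjusted p of 0.0346 and 0.0349 by edgeR, so that both passed. Since Memantine 3 was singled out by its low levels of these same genes, this pass is not independent support. Without any other single library the 2 genes did not pass, and their adjusted p reached 1. Without Glutamate 1, the log2 fold change of Slc17a7 was 4.02, and without Memantine 2 that of Slc17a6 was 1.93. An unadjusted p below 0.05 and a higher fold above 1.5 was met by 2 of the 9 genes and 4.81% of all genes, and the adjusted threshold by 0 of the 9 and 0% of all genes. DESeq2 and the likelihood-ratio test also called 0 of the 9 here. Against Control, the log2 fold change of Memantine was 0.08 for Slc17a7 (95% interval -1.61 to 1.76) and 0.20 for Slc17a6 (95% interval -1.38 to 1.78). Without Memantine 3 these values were 0.62 and 0.74.

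By mean level, Slc17a7 was ordered Memantine (64.3 ± 49.97 CPM, SD, n = 3), Control (60.9 ± 15.1), Glutamate_secret (14.8 ± 8.80), Glutamate_BPC (12.2 ± 6.30), Glutamate (8.10 ± 7.19) and Glutamate_vesicles (6.33 ± 3.27). Only the step from Control to Glutamate_secret exceeded the spread within both neighbouring groups. Slc17a6 followed as Memantine (10.6 ± 8.47 CPM, SD, n = 3), Control (9.17 ± 1.88), Glutamate_BPC (2.55 ± 0.54), Glutamate_vesicles (2.50 ± 0.75), Glutamate_secret (2.28 ± 1.75) and Glutamate (1.76 ± 0.77), again with a single step, between Control and Glutamate_BPC. In the test of any difference among the 6 groups, the unadjusted p was 0.00169 for Slc17a7 and 0.00874 for Slc17a6, and the adjusted p was 0.155 and 0.293 by the edgeR quasi-likelihood test, which called 0 of the 9 genes and 0.00695% of all genes. DESeq2 and the edgeR likelihood-ratio test each called both genes, with adjusted p of 0.000448 and 0.000290 for Slc17a7 and of 0.0103 and 0.0110 for Slc17a6. Without Memantine 3, a choice that rests on the levels of these same genes, the quasi-likelihood test of edgeR called both as well, at adjusted p of 0.0144 for Slc17a7 and 0.0278 for Slc17a6. Over all alternatives these adjusted p ran from 0.000290 to 0.411 for Slc17a7 and from 0.0103 to 0.644 for Slc17a6.

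Neuron markers moved with these transporters. The summed level of the 10 neuron markers (such as Tubb3, Map2 and Snap25) was 2802 to 3905 CPM in Control, 882 to 1617 CPM in Glutamate, 954 to 1360 CPM in Glutamate_vesicles, 772 to 1496 CPM in Glutamate_secret and 1048 to 1544 CPM in Glutamate_BPC. In Memantine it was 4519, 2798 and 992 CPM, the last being that of Memantine 3. No neuron marker was at 0 in any library. All 10 were lower in Glutamate than in Control, 7 of them with an unadjusted p below 0.05 (7.99% of all genes), and their median log2 fold change was -1.51 against 0.08 for all genes tested. The 6 markers of glutamatergic cortical neurons had a median of -2.21 and the 6 of GABAergic neurons one of -1.27, and none of these markers passed the adjusted edgeR threshold. The part of neuronal content in the levels of Slc17a7 and Slc17a6 was not tested.

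**Figure D2:**
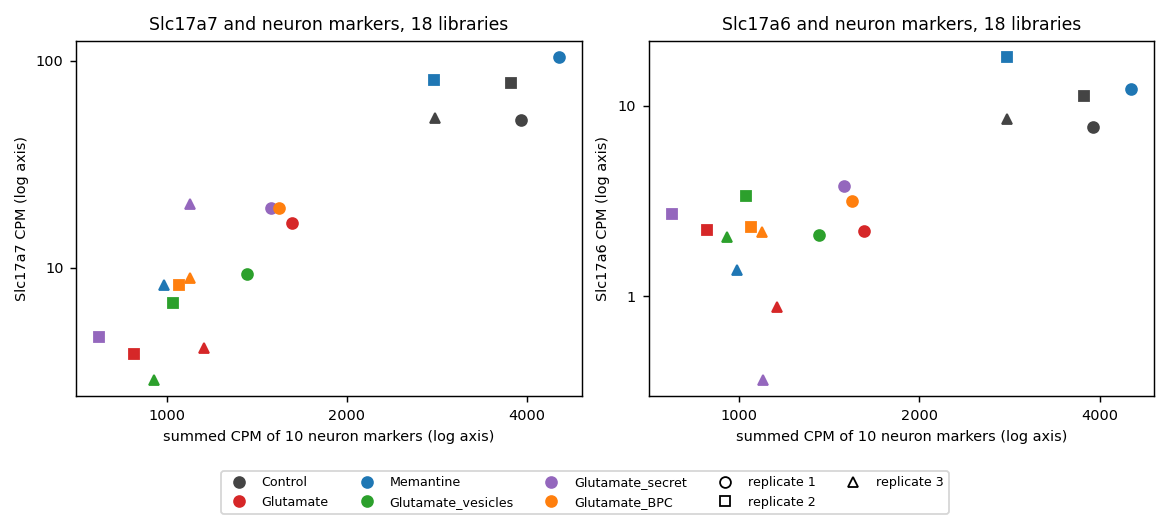
Slc17a7 (left) and Slc17a6 (right) in CPM against the summed CPM of 10 neuron markers in the 18 libraries (all axes log), coloured by group, with point shapes for the replicate number. Control and the first 2 Memantine libraries lie to the upper right, and Memantine 3 lies with the libraries that had glutamate and no memantine, at 992 CPM of neuron markers.

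Per 1000 CPM of neuron markers, Slc17a7 was at 13.2, 20.8 and 18.9 CPM in Control and at 10.1, 4.32 and 3.54 CPM in Glutamate. It was at 6.89, 6.58 and 3.01 CPM in Glutamate_vesicles, 13.0, 5.96 and 18.5 CPM in Glutamate_secret and 12.6, 7.86 and 8.14 CPM in Glutamate_BPC on that scale. Relative to these general neuron markers, Slc17a7 was below the Control range in Glutamate, Glutamate_vesicles and Glutamate_BPC and overlapped with it in Glutamate_secret. Relative to the 6 markers of glutamatergic cortical neurons, no group's range lay below that of Control. Per 1000 CPM of those markers, Slc17a7 was at 134, 569 and 445 CPM in Control and at 174, 122 and 90.9 CPM in Glutamate. The ranges were 129 to 221 CPM in Glutamate_vesicles, 187 to 336 in Glutamate_secret and 246 to 339 in Glutamate_BPC, and all 4 overlapped with Control, whose lowest value was that of Control 1. Control 2 and 3 lay above every library of these 4 groups. Per 1000 CPM of the GABAergic markers, Slc17a7 was at 224 to 322 CPM in Control and 34.0 to 144 CPM in Glutamate. It was at 25.5 to 89.3 CPM in Glutamate_vesicles and 86.7 to 148 CPM in Glutamate_BPC, also below Control. In Glutamate_secret it was at 62.6 to 283 CPM, which overlapped. Slc17a6 per 1000 CPM of neuron markers was at 1.97 to 3.04 CPM in Control and 0.76 to 2.52 CPM in Glutamate, and these ranges overlapped. Per 1000 CPM of the glutamatergic markers it was at 20.1 to 82.0 CPM in Control and 19.5 to 71.4 CPM in Glutamate, which also overlapped. Relative to the GABAergic markers it was at 33.6 to 46.3 CPM in Control. It was lower on that scale in Glutamate (12.5 to 19.9), Glutamate_vesicles (18.2 to 24.3) and Glutamate_BPC (21.4 to 24.3). In Glutamate_secret (5.05 to 39.8) it overlapped with Control. In Memantine, Slc17a7 was at 23.1, 28.7 and 8.33 CPM per 1000 CPM of the general markers and at 398, 374 and 343 CPM per 1000 CPM of the glutamatergic ones. These ratios are given as a description without a test.

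For the vesicular transporters, which were low together, and for the glial transporters Slc1a2 and Slc1a3, which were not, the 300 bases from 250 before to 50 after the start of the gene are shown 5′ to 3′ from RefSeq (GRCr8). Where RefSeq lists several starts for a gene, the first listed is printed. Capitals mark matches on either strand to the GC box GGGCGG and the E-box CANNTG. The regions are chr1:104785955-104786254 (+) for Slc17a7, chr1:110348197-110348496 (+) for Slc17a6, chr3:109459859-109460158 (+) for Slc1a2 and chr2:59557759-59558058 (-) for Slc1a3.
Slc17a7: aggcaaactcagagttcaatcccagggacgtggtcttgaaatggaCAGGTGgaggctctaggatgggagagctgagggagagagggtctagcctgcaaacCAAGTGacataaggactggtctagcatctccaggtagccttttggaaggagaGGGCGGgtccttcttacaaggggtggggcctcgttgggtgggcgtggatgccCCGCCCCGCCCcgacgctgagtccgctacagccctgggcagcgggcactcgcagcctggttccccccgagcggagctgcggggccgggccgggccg
Slc17a6: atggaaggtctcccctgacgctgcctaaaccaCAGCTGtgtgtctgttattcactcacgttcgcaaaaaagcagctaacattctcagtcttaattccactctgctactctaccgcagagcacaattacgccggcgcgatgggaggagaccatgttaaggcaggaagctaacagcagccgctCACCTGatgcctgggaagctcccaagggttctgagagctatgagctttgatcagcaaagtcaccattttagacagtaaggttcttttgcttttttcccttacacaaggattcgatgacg
Slc1a2: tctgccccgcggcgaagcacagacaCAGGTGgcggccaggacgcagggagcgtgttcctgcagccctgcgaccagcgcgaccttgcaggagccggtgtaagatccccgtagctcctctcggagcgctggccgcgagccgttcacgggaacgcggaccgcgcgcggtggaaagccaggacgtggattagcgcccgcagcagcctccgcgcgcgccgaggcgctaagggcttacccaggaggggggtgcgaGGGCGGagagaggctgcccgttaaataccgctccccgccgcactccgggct
Slc1a3: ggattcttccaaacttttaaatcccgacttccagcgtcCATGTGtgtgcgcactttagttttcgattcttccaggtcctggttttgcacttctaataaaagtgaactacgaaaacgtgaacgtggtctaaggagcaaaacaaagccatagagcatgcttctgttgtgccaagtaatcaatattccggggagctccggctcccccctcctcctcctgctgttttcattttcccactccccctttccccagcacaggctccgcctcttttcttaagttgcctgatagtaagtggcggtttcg

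The Slc17a7 sequence held 3 GC boxes and 2 E-boxes, and that of Slc17a6 held 0 GC boxes and 2 E-boxes. The Slc1a2 sequence had 1 of each motif, and the Slc1a3 sequence had only 1 E-box. Their GC contents were 64.7% for Slc17a7, 49.0% for Slc17a6, 71.0% for Slc1a2 and 48.3% for Slc1a3, beside a median of 51.7% over 33469 promoters. RefSeq gave 11 promoters for 7 of the 9 genes, and Slc1a1 and Slc38a3 had no entry. A GC box was found in 6 of the 11 and in 33.1% of all promoters, and an E-box in 9 of the 11 and in 72.1% of all. The AP-1 site TGANTCA was in 1 of the 11 (7.33% of all), and the cAMP response element TGACGTCA (1.83% of all) and the TATA box TATAAA (14.2% of all) in 0 of the 11. These matches describe letters in the windows shown and were not tied to the levels.

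The glial uptake transporters showed no such separation of the groups. Slc1a2 (GLT-1), which carries most glutamate uptake in the adult forebrain, was at 13.7, 11.1 and 16.7 CPM in Control and at 10.3, 34.5 and 19.7 CPM in Glutamate. Slc1a3 (GLAST), the astrocyte transporter that prevails early in development, was at 381, 729 and 962 CPM in Control and at 592, 1711 and 836 CPM in Glutamate. Both Glutamate ranges overlapped with Control, and the log2 fold changes were 0.63 for Slc1a2 (SE 0.65, 95% interval -0.74 to 2.01) and 0.60 for Slc1a3 (SE 0.64, 95% interval -0.76 to 1.95). Slc1a2 was at 8.27, 39.2 and 13.4 CPM in Memantine, and Slc1a3 at 349, 1098 and 982 CPM. Over the 3 preparations, Slc1a2 ranged from 5.83 to 30.2 CPM and Slc1a3 from 568 to 2092 CPM, with the highest value of both in Glutamate_secret 2. Against Glutamate, the log2 fold changes of the preparations were -0.48, -0.47 and -0.69 for Slc1a2 and 0.05, 0.15 and -0.06 for Slc1a3, in the order Glutamate_vesicles, Glutamate_secret and Glutamate_BPC.

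By mean level, Slc1a2 ran from 21.5 ± 12.2 CPM (SD, n = 3) in Glutamate to 13.4 ± 3.14 in Glutamate_BPC, and Slc1a3 from 1159 ± 817 in Glutamate_secret to 691 ± 292 in Control. No step between neighbouring groups in these orders exceeded the spread within them. The neuronal uptake transporter Slc1a1 (EAAC1) was at 8.57, 15.8 and 13.4 CPM in Control and 3.87, 21.0 and 7.20 CPM in Glutamate, with a log2 fold change of -0.24 (SE 0.94, 95% interval -2.24 to 1.77). It was highest in Memantine 2 at 32.2 CPM and lowest in Glutamate_secret 3 at 1.99 CPM. Its group means lay between 7.68 CPM in Glutamate_BPC and 12.9 CPM in Memantine, and each step was smaller than the SD of its neighbours. Unlike Slc17a7 and Slc17a6, Slc1a1 thus showed no separation of Control from the groups with glutamate and no memantine, although all 3 are neuronal.

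The enzymes also overlapped between groups. Glul, which forms glutamine from glutamate and ammonia, was at 1168, 748 and 1047 CPM in Control, 846, 1205 and 1585 CPM in Glutamate and 506, 617 and 1665 CPM in Memantine. Its lowest level was 414 CPM in Glutamate_vesicles 3, and the other libraries of that group were at 844 and 853 CPM. The log2 fold change of Glul was 0.30 in Glutamate against Control (95% interval -0.83 to 1.42) and -0.78 in Glutamate_vesicles against Glutamate (95% interval -1.91 to 0.35, unadjusted p of 0.160). In the main edgeR fit of all 18 libraries, that was the smallest unadjusted p of the other 7 genes in any comparison of a preparation or Memantine with Glutamate. With the log2 share of ribosomal RNA as a covariate, 1 of the 9 genes, not a vesicular transporter, had an unadjusted p below 0.05 by edgeR in Glutamate_secret against Glutamate. So did 1852 of all 14398 genes. In Glutamate_secret against Control with that covariate, 3 of the 9 did, both vesicular transporters among them, as did 3642 of all genes. Glud1, the mitochondrial enzyme that feeds glutamate carbon into the citric acid cycle, ranged from 144 to 395 CPM in Control and from 236 to 410 CPM in Glutamate, with a log2 fold change of 0.36 (SE 0.46, 95% interval -0.63 to 1.34). Its group means ran from 343 ± 93.5 CPM (SD, n = 3) in Glutamate to 264 ± 83.8 in Glutamate_secret.

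Among the glutamine transporters, Slc38a3 (SNAT3), the astrocyte exporter, was at 41.7, 124 and 128 CPM in Control and 85.8, 179 and 159 CPM in Glutamate, a log2 fold change of 0.53 (SE 0.52, 95% interval -0.57 to 1.62). In Glutamate_BPC it was at 132, 150 and 200 CPM, which put all 3 libraries above all 3 Control libraries. It was the only one of the 9 genes with ranges higher in Glutamate_BPC than in Control and without overlap, a pattern found in 12.2% of all genes, and its unadjusted p was 0.189. The low Control 1 value of Slc38a3 came from the library with 43.0% ribosomal RNA. Slc38a1 (SNAT1), which brings glutamine into neurons, was at 0.57, 7.21 and 8.02 CPM in Control and 1.16, 15.2 and 4.86 CPM in Glutamate, with a log2 fold change of 0.39 (95% interval -2.01 to 2.80). The Control 1 value of Slc38a1 rests on 2 counts. Its highest level was 24.7 CPM in Memantine 2, and its group means ran from 3.85 to 9.94 CPM, each step being smaller than the larger SD of its neighbours.

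**Figure D3:**
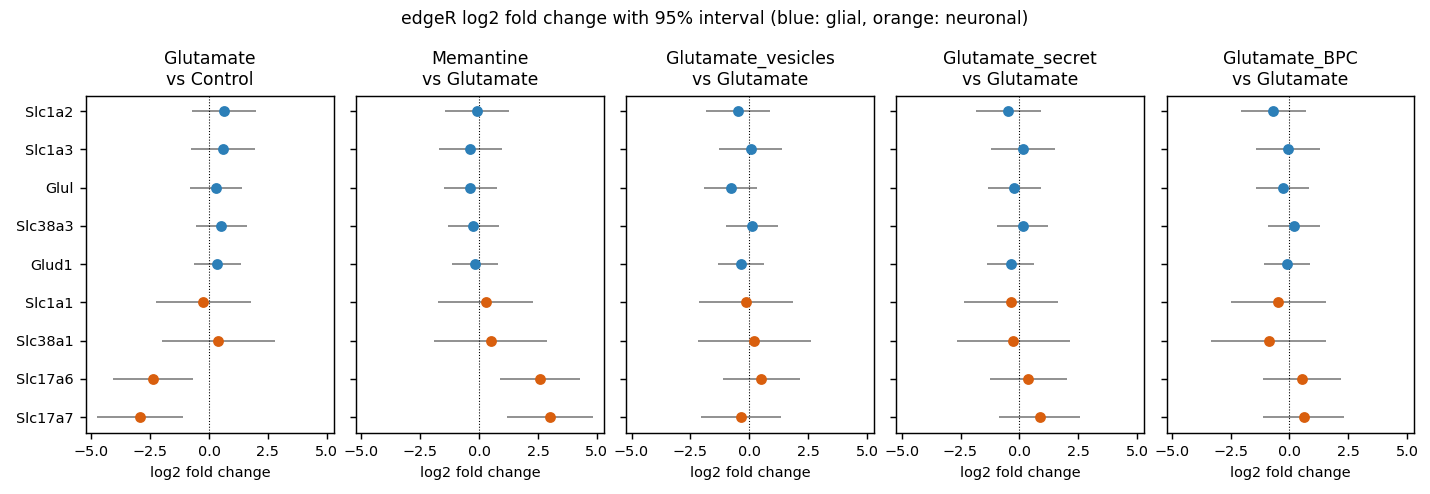
Log2 fold change of the 9 genes with the 95% interval of the edgeR fit in 5 comparisons (blue, glial; orange, neuronal; 0 dotted). Only Slc17a6 and Slc17a7 have intervals that leave out 0, at -2.38 and -2.92 in Glutamate against Control and at 2.57 and 3.00 in Memantine against Glutamate.

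Over the 7 genes other than the vesicular transporters, log2 fold changes in Glutamate against Control ran from -0.24 (Slc1a1) to 0.63 (Slc1a2), with 0.322 as the smallest unadjusted p (Slc38a3). Against Glutamate, they ran from -0.38 (Glul) to 0.48 (Slc38a1) in Memantine, from -0.78 to 0.20 in Glutamate_vesicles, from -0.47 to 0.15 in Glutamate_secret and from -0.89 to 0.18 in Glutamate_BPC. Without Memantine 3, the Memantine values ran from -1.11 (Glul, unadjusted p of 0.0535) over -0.90 (Slc38a3) to 0.92 (Slc38a1), with adjusted p of 0.388 for Glul and 0.519 for Slc38a3 by edgeR. In the comparisons of vesicles, secret and BPC with Glutamate, the edgeR test counted 0 of the 9 genes by either criterion, the adjusted p or the unadjusted p below 0.05 with a fold above 1.5. In that order, 1.03%, 0.66% and 1.03% of all genes met the second criterion, and 0% met the first. DESeq2 and the edgeR likelihood-ratio test also called 0 of the 9 in these comparisons and in Memantine against Control, where 1.07% of all genes and 0 of the 9 met the second edgeR criterion. These comparisons share the Glutamate or the Control libraries and are not independent.

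Glial and neuronal genes were set against each other as the mean log2 CPM of the 5 glial genes minus that of the 4 neuronal genes in each library. The difference was 3.85 ± 0.45 in Control (SD, n = 3), 5.75 ± 0.47 in Glutamate, 5.24 ± 0.14 in Glutamate_vesicles, 5.59 ± 0.98 in Glutamate_secret and 5.39 ± 0.45 in Glutamate_BPC. Every library of these 4 glutamate groups lay above the highest Control library. In Memantine it was 3.34, 2.85 and 6.47, so that the replicate labelled 3 lay among the libraries with glutamate and no memantine. The difference includes Slc17a7 and Slc17a6, by whose levels that library was singled out, so this is not a separate result. The median log2 fold change in Glutamate against Control was 0.53 for the glial genes (range 0.30 to 0.63) and -1.31 for the neuronal genes (range -2.92 to 0.39), beside 0.08 for all genes tested. The neuronal value came from Slc17a7 and Slc17a6, since Slc1a1 and Slc38a1 had values of -0.24 and 0.39. Astrocyte markers summed to 2842 to 5574 CPM in Control and 4232 to 11162 CPM in Glutamate, with a median log2 fold change of 0.63 over the 9 tested and 0 with an unadjusted p below 0.05. The medians of the 8 microglial and 8 oligodendrocyte-lineage markers were 1.01 and 0.59, also with 0 below that p. The part of astrocyte content in the levels of the glial genes was not tested.

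**Figure D4:**
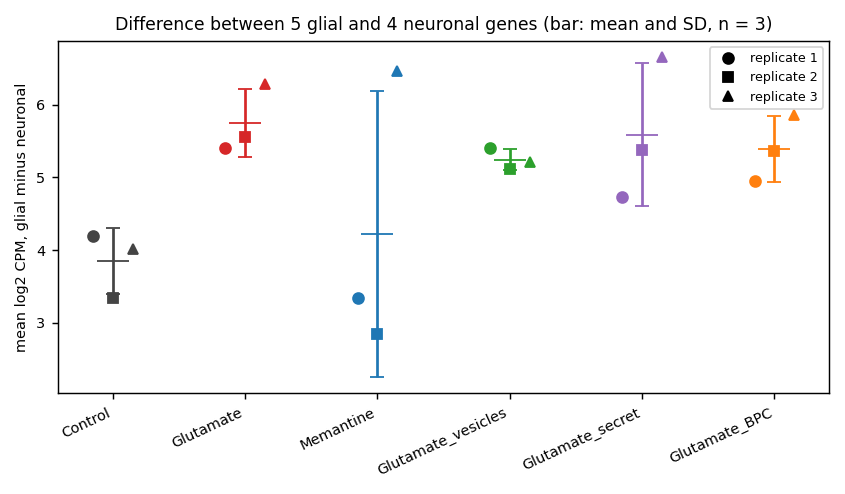
Mean log2 CPM of the 5 glial genes minus that of the 4 neuronal genes in each library by group (points, shaped by replicate number), with the group mean and SD of 3 libraries. Control sits at 3.85 ± 0.45 and Glutamate at 5.75 ± 0.47, and Memantine is divided between 2.85 and 3.34 on one side and 6.47 on the other.

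Several of the 9 genes differed with the replicate number. Slc1a1 was highest in the library numbered 2 in 6 of 6 groups, and Slc1a2, Slc1a3 and Slc38a1 were so in 5 of 6. The median log2 difference between the libraries numbered 2 and 1 of a group was 2.83 for Slc38a1, 2.02 for Slc1a1, 1.51 for Slc1a3 and 1.36 for Slc1a2. For Slc17a7 it was -0.85 and for Slc17a6 0.28, and Slc17a7 was highest in the library numbered 2 in 1 of 6 groups. Ribosomal RNA took 13.4% to 43.0% of counts in the libraries numbered 1, 3.04% to 8.15% in those numbered 2 and 6.58% to 26.6% in those numbered 3. The part of ribosomal RNA in this pattern was not tested. With the log2 share of ribosomal RNA as a covariate, an alternative chosen after seeing the data, 0 of the 9 genes passed the adjusted edgeR threshold in any pairwise comparison.

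Of 28 further genes of glutamate and glutamine metabolism, 27 could be tested, Slc38a5 being below the filter. In Glutamate against Control, 2 of the 27 had an unadjusted p below 0.05 with a fold above 1.5, both lower, beside 5.92% of all genes, and 0 had an adjusted p below 0.05, with a median log2 fold change of 0.09 beside 0.08 for all genes. A count of 2 in 27 is near that share of all genes, and the 2 are given as a description. Slc25a22, a mitochondrial glutamate carrier, was at 22.8, 61.6 and 61.6 CPM in Control and 20.7, 16.3 and 19.1 CPM in Glutamate, with a log2 fold change of -1.39 (SE 0.39). Slc1a6, a neuronal glutamate transporter best known from Purkinje cells, was at 4.57, 4.96 and 4.04 CPM in Control and 1.42, 0.57 and 1.17 CPM in Glutamate, with a log2 fold change of -2.11 (SE 0.62). Slc1a6 rests on few reads, since it ranged only from 0.54 to 5.69 CPM over the 18 libraries. Ranges did not overlap for either gene, although Control 1 was close to Glutamate 1 for Slc25a22. The adjusted p were 0.296 for Slc25a22 and 0.310 for Slc1a6 by edgeR.

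In Memantine against Glutamate, 2 of the 27 met that criterion, again Slc25a22 and Slc1a6, both higher, beside 4.81% of all genes, with log2 fold changes of 1.27 for Slc25a22 and 1.63 for Slc1a6. Without Memantine 3 they were 1.51 and 2.09, with adjusted p of 0.0666 for Slc25a22 and 0.0619 for Slc1a6 by edgeR. In Memantine 3, Slc1a6 was at 0.86 CPM, inside its Glutamate range, and Slc25a22 at 28.1 CPM. Against Glutamate, 0 of the 27 genes had an unadjusted p below 0.05 in any of the 3 preparations.

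The genes most like Slc17a7 over the 18 libraries, by the Pearson correlation of log2 CPM, were Vsnl1 (0.97), Neurod6 (0.96), Bcl11a (0.96), Kcnj4 (0.96) and Vamp2 (0.95). Those most like Slc1a2 were Sox6 (0.92), Sema3d (0.92), Enah (0.92), Abca1 (0.91) and Ednrb (0.91). The libraries share their groups, replicate numbers and scaling, so these values describe likeness and were not tested.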

How the data were processed

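The authors sequenced 18 RNA libraries of neuroglial cultures. The deposited values are expected counts per gene, not scaled between libraries. According to the study's methods, the authors removed adapters and poor bases (Trimmomatic, Cutadapt), estimated transcript abundance by Salmon from the Ensembl set for rn6, and used tximport to obtain gene sums. The submitters' processing notes name STAR and Salmon, whose versions are not given in the sources used here, and the sources differ on the library kit and the sequencing platform. Strand was not stated for the counting, so that reads of overlapping genes may be shared.

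Expected counts were rounded and tested with the quasi-likelihood test of edgeR 4.0.16 (R 4.3.3), after filterByExpr (minimum count 10, minimum total 15) had left 14398 genes. TMM scaling, 1 mean per group over all 18 libraries and two-sided tests with Benjamini-Hochberg adjustment over all genes were used. Calls needed an adjusted p below 0.05, and an unadjusted p below 0.05 with a fold above 1.5 was counted beside it. The SE is the log2 fold change divided by the square root of the F statistic, and log2 CPM had a prior count of 2. The edgeR quasi-likelihood test was also run on simulated counts with known changes. Those counts held no effect of the replicate number or of ribosomal RNA, so the run does not bear on such effects here. DESeq2 1.42.0, the likelihood-ratio test of edgeR (which the study used) and other alternatives were run. The 9 genes, the marker and pathway lists and the tests were chosen with earlier results of these data known.

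All 9 genes were named in every comparison, pathway genes where the unadjusted p was below 0.05 in Glutamate against Control or a treated group against Glutamate (at most 6 per comparison, by smallest p), and the 5 genes with the highest Pearson correlation with each of Slc17a7 and Slc1a2. 1 gene of the pathway list is not reported here, and the counts over that list leave it out. Libraries were grouped by their labels. Titles give replicate numbers 1 to 3, without saying what a number marks. The study's supplement clustered control, glutamate, memantine and vesicle cultures on counts corrected for batch. For its plot of cultures without glutamate it removed the variation of a day covariate. It does not say which library belongs to which batch or day. By the correlation of deviations from the group means, every pair exceeded 0.1 in Glutamate_vesicles against Control (0.60, 0.50 and 0.21), and in Memantine, Glutamate_secret and Glutamate_BPC against Glutamate, where the lowest was 0.44. In these, the numbers may pair the libraries, but the main fit did not use a pairing, so its SE, intervals and p are unpaired. The replicate number was fitted as a block only as an alternative, in all comparisons alike. Gene lengths were not used here, so levels were not compared between genes.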

Additional observations from a re-analysis of the deposited data

How the results depend on the processing

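No alternative turned the direction of Slc17a7 or Slc17a6 in Glutamate against Control, in Memantine against Glutamate or in a preparation against Control. Calls did depend on the test. In Glutamate against Control, the 0 calls among the 9 genes became 1 (Slc17a7) with DESeq2 and 1 with the replicate block (log2 fold change -3.26, adjusted p 0.0445 by edgeR). In Glutamate_vesicles against Control, 0 became 1 (Slc17a7) with DESeq2, 1 with the likelihood-ratio test and 1 with the replicate block. Across the 6 groups, 0 became 2 (Slc17a7 and Slc17a6) with DESeq2, 2 with the likelihood-ratio test, 2 with the replicate block and 1 (Slc17a7) with the ribosomal RNA covariate. The block changed no other call. With it, 3, 4 and 3 of the 9 genes had an unadjusted p below 0.05 by edgeR in Glutamate_vesicles, Glutamate_secret and Glutamate_BPC against Control. Both vesicular transporters were among them, and the main fit counted 2 of the 9 in each. Over all 14398 genes, 2832, 3180 and 3081 had such a p with the block. Over all genes, calls in Glutamate against Control went from 0 to 232 with DESeq2, 45 with the likelihood-ratio test and 141 with the block, and in Glutamate_vesicles against Control from 2 to 495, 161 and 504. In Glutamate_secret against Control they went from 0 to 449, 219 and 673, and in Glutamate_BPC against Control from 0 to 256, 62 and 152, each in the order DESeq2, likelihood-ratio test and block. In Glutamate against Control, the libraries numbered 1 and 2 deviated together (r of 0.59 and 0.57), but those numbered 3 did not (r of -0.12). Whether a number marks a pair there is therefore unsettled. Leaving out 1 library gave 0 to 2 calls in Memantine against Glutamate and 0 to 2 across the 6 groups, the 2 calls coming without Memantine 3, and 0 in the other comparisons. The glial minus neuronal difference between Glutamate and Control became 2.52 without Glud1 and Slc38a1. The causes were not tested.

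Small, uncalled log2 fold changes changed sign. With the replicate block, these were Slc38a1 in Glutamate against Control (-0.0071), Slc1a1 in Memantine (-0.088) and in Glutamate_vesicles (0.060) against Glutamate, Slc1a3 in Glutamate_BPC against Glutamate (0.074), and Slc17a6 (-0.18) and Slc17a7 (-0.24) in Memantine against Control. With the ribosomal RNA covariate, chosen after seeing the data, they were Slc1a1 (-0.81) and Slc38a1 (-0.97) in Memantine against Glutamate, Slc1a3 (-0.43), Slc38a3 (-0.16) and Slc38a1 (-0.93) in Glutamate_vesicles against Glutamate, Slc1a3 in Glutamate_secret against Glutamate (-0.15) and Slc17a6 in Memantine against Control (-0.0074). With totals without ribosomal RNA and no TMM, also chosen after seeing the data, they were Slc1a3 (-0.012) and Slc38a3 (-0.12) in Glutamate_secret against Glutamate, where the median of all genes moved from -0.01 to -0.22. Of 477 single-gene values under these alternatives, 457 kept their direction and their side of the threshold.

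Leaving out 1 library turned the sign of other uncalled values. In Glutamate against Control the range was -1.18 to 0.16 for Slc1a1 and -0.84 to 0.89 for Slc38a1. In Memantine against Glutamate it was -0.99 to 0.44 for Slc1a2, -0.65 to 0.18 for Slc1a3, -0.90 to 0.12 for Slc38a3, -0.64 to 0.12 for Glud1, -1.72 to 1.22 for Slc1a1 and -1.49 to 1.71 for Slc38a1. In Glutamate_vesicles against Glutamate it was -0.94 to 0.040 for Slc1a2, -0.55 to 0.61 for Slc1a3, -0.15 to 0.32 for Slc38a3, -0.68 to 0.81 for Slc1a1, -0.66 to 1.44 for Slc38a1 and -0.74 to 0.67 for Slc17a7. In Glutamate_secret against Glutamate it was -1.42 to 0.056 for Slc1a2, -0.60 to 0.70 for Slc1a3, -0.66 to 0.030 for Glul, -0.12 to 0.37 for Slc38a3, -2.06 to 0.59 for Slc1a1, -1.92 to 0.98 for Slc38a1 and -0.11 to 0.86 for Slc17a6. In Glutamate_BPC against Glutamate it was -0.34 to 0.49 for Slc1a3, -0.076 to 0.39 for Slc38a3, -0.30 to 0.054 for Glud1, -0.87 to 0.47 for Slc1a1 and -1.38 to 0.34 for Slc38a1. In Memantine against Control it was -0.44 to 0.74 for Slc17a6 and -0.46 to 0.62 for Slc17a7.

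Low counts limit Slc17a6 and Slc38a1 most. The lowest count of Slc17a6 was 2, in Glutamate_secret 3, and that of Slc38a1 was 2, in Control 1.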
